A study of Mus musculus with 6 samples.

Results

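The genes that build cholesterol and fatty acids were read in tumour-infiltrating mouse myeloid cells. The set held 37 of the 23107 genes in the count table and was put together by gene function, with earlier results of these data known: 18 enzymes of the sterol route, 5 regulators of that route and 14 genes of fatty acid synthesis, desaturation, elongation and activation. All 37 were found, 36 under their current symbol and Msmo1 under its older symbol Sc4mol, and all 37 passed the filter on low counts. The route was not covered completely, since some of its enzymes were not among the 37. The study compared 3 libraries from gliomas with wild-type IDH1 (wtIDH1) with 3 from gliomas with mutant IDH1 (mIDH1), an enzyme form that makes 2-hydroxyglutarate. All 6 came from C57BL/6 mice and from cells that carried CD11b and Gr-1 and were sorted by flow cytometry after Percoll enrichment. The genotype is that of the tumour, and the sources used here do not give the tumour model, the age of the mice or whether replicates came from separate mice. P-values therefore reflect only how these 6 samples vary, which may be technical in part.

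Cholesterol is built from acetyl-coenzyme A through mevalonate, isoprenoid phosphates, squalene and lanosterol. Transcription of the route is driven mainly by the sterol regulatory element-binding protein SREBP2 (Srebf2), and that of fatty acid genes largely by SREBP1 (Srebf1). The escort protein SCAP carries both factors to the Golgi for cleavage when membrane sterol is low, and INSIG proteins hold SCAP back when it is high. Macrophages also take up, store and export large amounts of sterol, and in them sterol intermediates and unsaturated fatty acids are tied to inflammatory signalling.

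The promoters of these genes are known for binding SREBP together with the factors NF-Y and Sp1. Sequence before the start site is shown for Hmgcs1, an early step of the route, for Pmvk and Mvd, neighbouring steps with opposite signs of difference, and for Insig1, the SREBP target that restrains the pathway. The sequences are from RefSeq (GRCm38.p6), read 5′ to 3′ on the strand of the gene, and end before the first annotated start. Capitals mark matches on either strand to TCACNCCAC (a form of the sterol response element), CCAAT (the NF-Y box), GGGCGG (the Sp1 box) or CACGTG (the E-box), and no 2 different matches overlapped here.
Hmgcs1, chr13:119690101-119690350, plus strand: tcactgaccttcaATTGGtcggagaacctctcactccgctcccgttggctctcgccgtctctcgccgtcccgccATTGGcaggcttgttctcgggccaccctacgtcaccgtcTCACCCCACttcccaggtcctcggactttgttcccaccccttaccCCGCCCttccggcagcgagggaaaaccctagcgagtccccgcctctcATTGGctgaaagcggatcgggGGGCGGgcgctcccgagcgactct
Pmvk, chr3:89454291-89454540, plus strand: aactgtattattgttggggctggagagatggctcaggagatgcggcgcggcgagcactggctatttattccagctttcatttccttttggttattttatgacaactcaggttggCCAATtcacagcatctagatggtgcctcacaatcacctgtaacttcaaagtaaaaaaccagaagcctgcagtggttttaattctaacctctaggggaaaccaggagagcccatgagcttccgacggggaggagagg
Mvd, chr8:122443423-122443672, minus strand: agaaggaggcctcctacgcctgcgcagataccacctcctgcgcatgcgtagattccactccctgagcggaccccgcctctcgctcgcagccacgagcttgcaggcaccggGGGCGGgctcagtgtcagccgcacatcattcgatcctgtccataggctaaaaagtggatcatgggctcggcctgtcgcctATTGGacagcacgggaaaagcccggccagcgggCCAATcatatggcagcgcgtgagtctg
Insig1, chr5:28071162-28071362, plus strand: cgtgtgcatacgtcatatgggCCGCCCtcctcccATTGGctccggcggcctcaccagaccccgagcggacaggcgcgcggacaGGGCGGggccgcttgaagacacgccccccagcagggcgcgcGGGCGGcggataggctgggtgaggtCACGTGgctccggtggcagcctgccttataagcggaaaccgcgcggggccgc
The Hmgcs1 stretch held the sterol response form with its first base 137 bases before the start site, 3 NF-Y boxes and 2 Sp1 boxes. The Pmvk stretch held 1 NF-Y box only, Mvd 2 NF-Y boxes and 1 Sp1 box, and Insig1 1 NF-Y box, 3 Sp1 boxes and 1 E-box. RefSeq gave 41 windows of 300 bases (250 before to 50 after a start) for 31 of the 37 genes. CCAAT was found in 63.4% of these windows and in 37.4% of the 32851 windows of all genes, and GGGCGG in 73.2% and 35.7%. CACGTG was found in 17.1% and 7.15%, and TCACNCCAC in 4.88% and 1.24%, the windows of Hmgcs1 and Acsl1 (long-chain acyl-coenzyme A synthetase). The windows of all genes were not limited to genes that passed the filter on low counts, as all 37 did. These shares therefore do not show that a gap is particular to lipid genes. A match describes the letters of the window and does not show that a factor bound there, and a window without a match says nothing of the factor.

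Library totals ranged from 19728204 to 35093267 counts, at which 3 counts corresponded to between 0.0855 and 0.152 CPM (counts per 1000000 counts of the library). Such a limit covers counting error only. Itgam, the gene of CD11b, lay between 1780 and 2224 CPM in the 6 libraries, and did not separate the groups. Ly6c2, the gene of a Ly6C antigen that Gr-1 antibodies bind, fell, from 120, 215 and 121 CPM in the wtIDH1 libraries to 46.9, 54.3 and 33.8 CPM in the mIDH1 libraries (log2 fold change -1.76, adjusted p = 0.0018 by edgeR), so a gene tied to the sort differed between the groups. The 10 neutrophil markers ranged from Camp (0 to 4.74 CPM) and S100a8 (2.54 to 11.3 CPM) to Mmp8 (22.2 to 163 CPM) and Csf3r (110 to 273 CPM). The 8 macrophage markers summed to 2353 to 2980 CPM in wtIDH1 and to 4130 to 7343 CPM in mIDH1 libraries, with mIDH1 replicate 3 highest. All levels here are means over the sorted cells, so that fewer cells of a type and less RNA per cell cannot be told apart.

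Only Pmvk differed between the groups beyond the test's threshold among the 37 genes, and it was higher in mIDH1. By edgeR's quasi-likelihood test with Benjamini-Hochberg adjustment over 12950 genes, 1 of 37 passed an adjusted p of 0.05, while 8.17% of all genes tested passed (2.78% higher and 5.39% lower in mIDH1). Most of the differences were nonetheless positive. Of the 37 log2 fold changes (mIDH1 minus wtIDH1), 31 were positive, or 83.8%, against 53.4% of all genes, and their median was 0.44 against 0.06. Scaling by library totals alone moved the median of all genes to 0.13, with medians of 0.52 for the sterol enzymes and 0.61 for the fatty acid genes. At an unadjusted p under 0.05 there were 10 higher genes and 1 lower gene. Of all genes 22.2% had such a p in either direction (1311 genes higher and 1567 lower in mIDH1). The libraries of the groups did not overlap for 13 of the 37, 10 with mIDH1 higher and 3 with mIDH1 lower, and for 28.9% of all genes (14% higher and 14.9% lower in mIDH1).

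**Figure D1:**
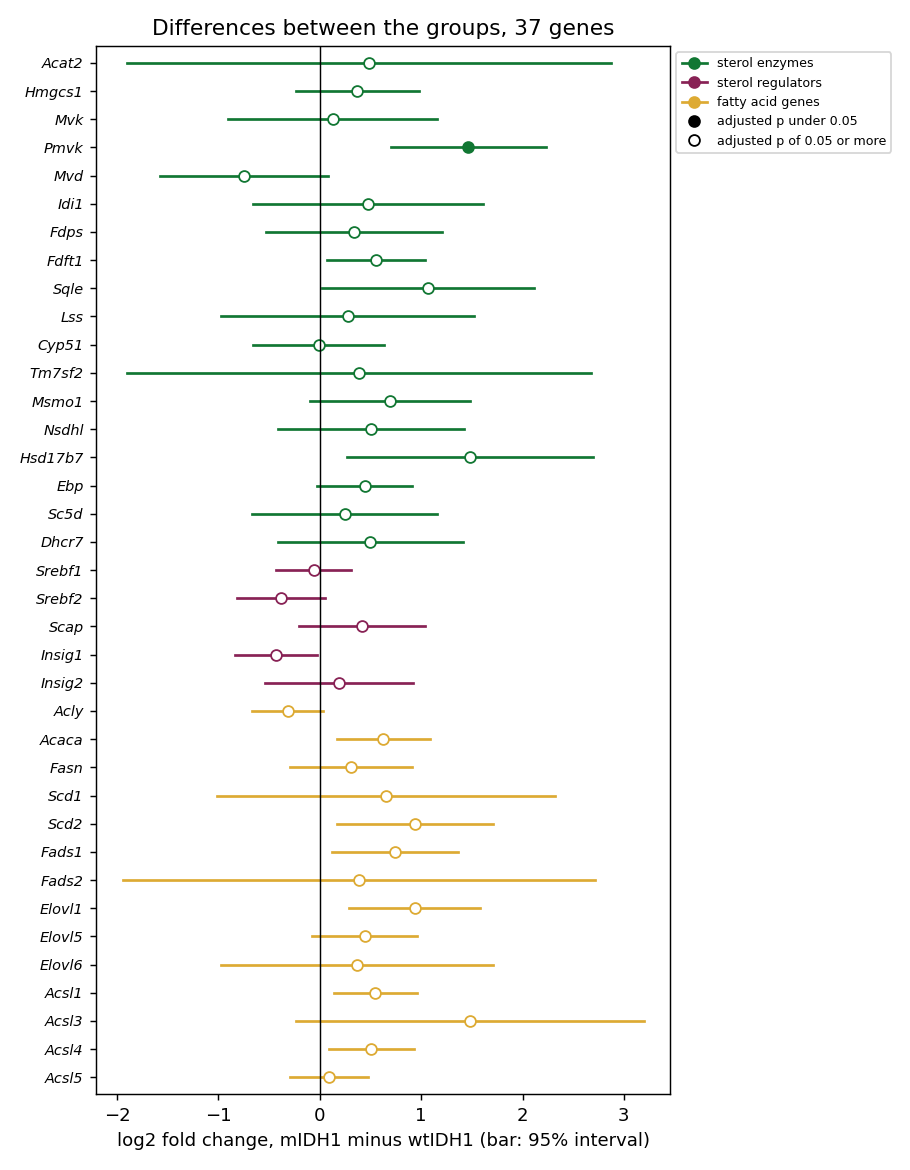
Log2 fold changes of the 37 genes between mIDH1 and wtIDH1 libraries (x axis; 3 libraries per group), with 95% intervals as bars, by gene (y axis). Filled points passed an adjusted p of 0.05, which Pmvk alone did at 1.46, while most open points lie right of 0 with intervals that reach it or nearly so.

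The first steps of the sterol route join acetyl-coenzyme A units into mevalonate. Acat2, the cytosolic acetyl-coenzyme A acetyltransferase, was low, at 2.63, 0.873 and 0.958 CPM in the wtIDH1 libraries and 0.660, 2.95 and 2.66 CPM in the mIDH1 libraries, with 19 to 95 counts per library, and its groups overlapped. Hmgcs1, the synthase that makes HMG-coenzyme A, was at 24.6, 19.9 and 24.1 CPM in the wtIDH1 libraries and 38.5, 27.2 and 23.0 CPM in the mIDH1 libraries. The last of these lay inside the wtIDH1 range, and the log2 fold change was 0.37 ± 0.28 SE (adjusted p = 0.490 by edgeR). Mvk, mevalonate kinase, lay between 6.09 and 8.32 CPM in all 6 libraries without separation of the groups.

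Pmvk, phosphomevalonate kinase, adds the next phosphate. The gene lies on chromosome 3 from 89454541 to 89469013 (mm10). It was at 19.6, 19.5 and 9.48 CPM in the wtIDH1 libraries and 27.6, 46.5 and 59.9 CPM in the mIDH1 libraries. Every mIDH1 library was above every wtIDH1 library, with wtIDH1 replicate 3 the lowest and mIDH1 replicate 3 the highest. The means were 16.2 ± 5.80 and 44.7 ± 16.2 CPM (SD, n = 3 each), a log2 fold change of 1.46 ± 0.35 SE (95% interval 0.70 to 2.23, adjusted p = 0.025 by edgeR). Between 188 and 1497 counts per library stood behind these values. By edgeR the adjusted p was 0.081 and 0.099 when wtIDH1 replicate 2 and 3 were left out in turn, 0.075 and 0.060 when mIDH1 replicate 2 and 3 were, and with the replicate number as a block it was 0.071, so that the call did not outlast the loss of these libraries or the block.

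Mvd, mevalonate diphosphate decarboxylase, acts directly after Pmvk and had the most negative difference of the 37. It was at 12.6, 17.9 and 17.4 CPM in the wtIDH1 libraries and 12.6, 7.33 and 8.61 CPM in the mIDH1 libraries. Replicate 1 of each group was nearly equal, and the other mIDH1 libraries were below all wtIDH1 libraries. The log2 fold change was -0.75 ± 0.38 SE (95% interval -1.57 to 0.08, adjusted p = 0.281 by edgeR). Idi1, which isomerises isopentenyl diphosphate, ranged from 7.17 to 18.4 CPM in wtIDH1 and from 7.75 to 29.6 CPM in mIDH1. Its sign rested on mIDH1 replicate 1: the log2 fold change was 0.47, and -0.32 without that library. Fdps, which makes farnesyl diphosphate, ranged from 7.72 to 22.4 and from 13.8 to 23.1 CPM.

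Fdft1, squalene synthase, commits the route to sterols. It was at 37.9, 33.3 and 35.4 CPM in the wtIDH1 libraries and 58.6, 57.1 and 40.9 CPM in the mIDH1 libraries, and the groups did not overlap. The log2 fold change was 0.56 ± 0.22 SE (adjusted p = 0.161 by edgeR). In the annotation 774 exon bases of Fdft1, 20.9% of its exon length, overlap exons of the cathepsin B gene Ctsb on the other strand. Ctsb was at 2633 CPM in the wtIDH1 libraries and 4088 CPM in the mIDH1 libraries (log2 fold change 0.63, adjusted p = 0.043 by edgeR). The library kit does not mark strand, so reads of the shared stretch cannot be told apart, and their part in the Fdft1 value was not tested. Sqle, squalene epoxidase, a rate-limiting step, was at 5.55, 5.24 and 9.83 CPM in the wtIDH1 libraries and 15.9, 20.2 and 7.13 CPM in the mIDH1 libraries. Replicates 1 and 2 of mIDH1 were above all wtIDH1 libraries, and replicate 3 was below wtIDH1 replicate 3. Its log2 fold change was 1.07 ± 0.48 SE (95% interval 0.02 to 2.12, adjusted p = 0.213 by edgeR).

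Lss, which folds squalene epoxide into lanosterol, overlapped widely, from 2.88 to 10.03 CPM in wtIDH1 and from 5.99 to 9.72 CPM in mIDH1. Cyp51, the lanosterol demethylase, had nearly equal means of 26.8 ± 3.08 and 26.5 ± 8.93 CPM (SD, n = 3 each), with mIDH1 replicate 3 lowest of the 6 at 17.0 CPM. Its log2 fold change was -0.01, and 0.23 without that library. Cyp51 shares 166 exon bases with Akap9 on the other strand. Akap9 fell from 119 to 62.9 CPM (log2 fold change -0.92, adjusted p = 0.013 by edgeR). The part of shared reads in the Cyp51 value was not tested. Tm7sf2, a sterol reductase, was at no more than 3.38 CPM in any library.

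Msmo1, which oxidises the methyl groups at carbon 4, was at 8.55, 18.3 and 18.8 CPM in the wtIDH1 libraries and 29.4, 27.0 and 17.4 CPM in the mIDH1 libraries, where replicate 3 lay inside the wtIDH1 range. Nsdhl, the next enzyme in removing these groups, lay between 6.89 and 8.80 CPM in wtIDH1 and between 9.39 and 13.6 CPM in mIDH1, without overlap. Hsd17b7, the ketoreductase of the same step, was at 2.59, 2.69 and 4.64 CPM in the wtIDH1 libraries and 6.06, 10.7 and 11.03 CPM in the mIDH1 libraries. Its groups did not overlap either, and its log2 fold change of 1.48 ± 0.56 SE was as large as that of Pmvk but did not pass (adjusted p = 0.133 by edgeR, 56 to 344 counts per library). Ebp, the sterol isomerase, was the sterol enzyme with the highest level per kilobase, and it was at 42.4, 45.3 and 34.1 CPM in the wtIDH1 libraries and 63.0, 53.9 and 48.7 CPM in the mIDH1 libraries, again without overlap (log2 fold change 0.44 ± 0.22 SE, adjusted p = 0.253 by edgeR). The closing steps, Sc5d (a desaturase) and Dhcr7 (the last reductase), overlapped, with log2 fold changes of 0.25 and 0.50 and adjusted p = 0.797 and 0.551 by edgeR.

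**Figure D2:**
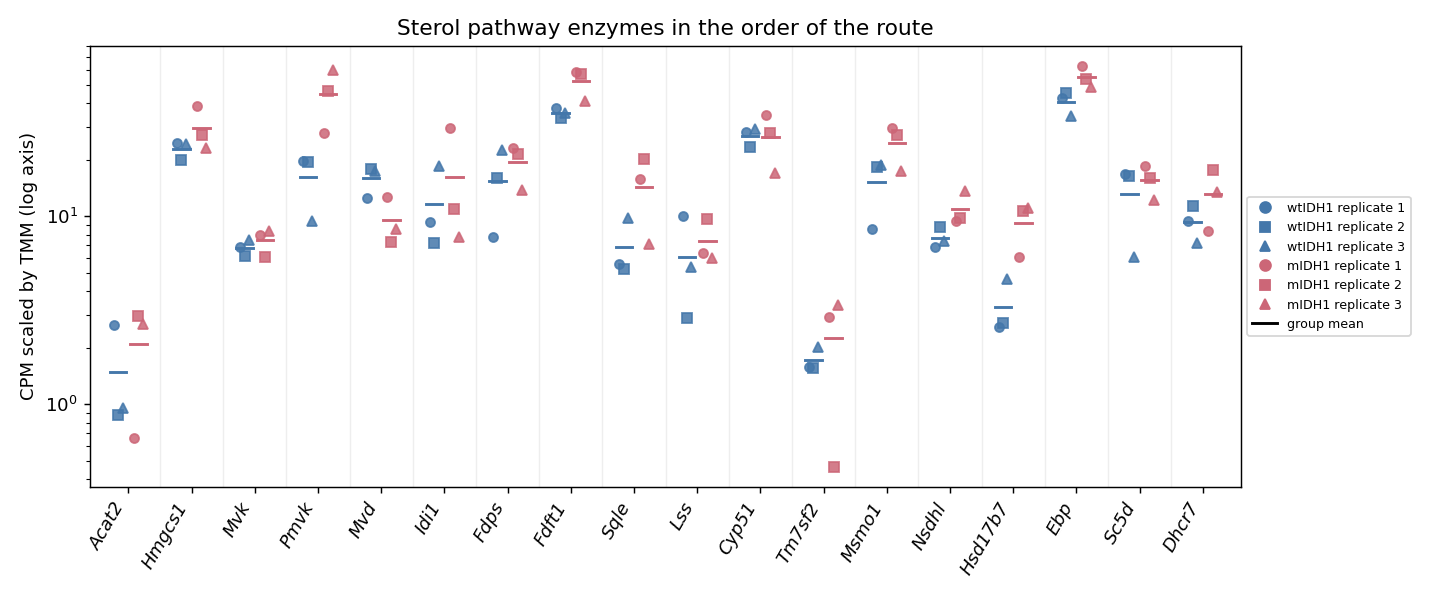
CPM scaled by TMM (log y axis) of the 18 sterol enzymes in pathway order (x axis), with 1 point per library, its shape giving the replicate, and bars for group means. The groups separate for Pmvk, Fdft1, Nsdhl, Hsd17b7 and Ebp, 5 of the 18, and for 28.9% of all genes (14% with mIDH1 higher). The third mIDH1 replicate (red triangles) is the lowest mIDH1 library for 10 of the 18 genes and the highest of all 6 libraries for 5.

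Summed over the 18 sterol enzymes, the wtIDH1 libraries held 253, 257 and 260 CPM and the mIDH1 libraries 393, 373 and 315 CPM. The sums did not overlap between the groups, and genes of high level weigh most in them. Of the 18 log2 fold changes 16 were positive, where 53.4% of all genes were, with a median of 0.46. Of the 18 genes 1 passed, where 8.17% of all genes did, so this count is near the background. The median was between 0.35 and 0.52 in all 15 other settings tried.

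The regulators had differences of both signs. Of 5 log2 fold changes 2 were positive, with a median of -0.06 (0.01 by library totals, 0.0015 by upper-quartile factors and 0.01 without mIDH1 replicate 2). Their summed level was 383, 359 and 379 CPM in the wtIDH1 libraries and 348, 345 and 306 CPM in the mIDH1 libraries, all below the former, with Srebf2 and Srebf1 the largest parts. None of the 5 passed edgeR's test, DESeq2 or limma voom, and 1, Insig1, had an unadjusted p under 0.05. Insig1, a retention factor of SCAP whose gene SREBP itself activates, was at 69.3, 65.9 and 73.0 CPM in the wtIDH1 libraries and 48.0, 50.2 and 56.2 CPM in the mIDH1 libraries. Every mIDH1 library was below every wtIDH1 library, with a log2 fold change of -0.43 ± 0.19 SE (95% interval -0.84 to -0.03, adjusted p = 0.192 by edgeR). Srebf2 was at 143, 139 and 175 CPM in the wtIDH1 libraries and 136, 128 and 85.9 CPM in the mIDH1 libraries, also without overlap, with mIDH1 replicate 3 far below the rest (log2 fold change -0.39 ± 0.20 SE, adjusted p = 0.287 by edgeR). Srebf1 was nearly level, at 90.7 ± 2.25 and 87.0 ± 8.09 CPM (SD, n = 3 each), and its log2 fold change of -0.06 had a 95% interval of -0.43 to 0.31 and turned positive by library totals, by upper-quartile factors and without mIDH1 replicate 2. Its transcripts share 109 exon bases with Rai1 on the other strand. Rai1 fell from 72.7 to 32.1 CPM (log2 fold change -1.18, adjusted p = 0.021 by edgeR). The part of shared reads in the Srebf1 value was not tested, and the isoforms of Srebf1 were not separated here. Scap ranged from 27.3 to 64.0 CPM in wtIDH1 and from 49.96 to 70.1 CPM in mIDH1, and Insig2, the isoform less dependent on sterol, from 13.6 to 23.6 and from 15.6 to 24.4 CPM.

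Fatty acid synthesis starts with Acly, which splits citrate to cytosolic acetyl-coenzyme A for both fatty acids and sterols. Acly had the highest level per kilobase of the 37, and it was the only fatty acid gene with a negative difference. It was at 332, 373 and 417 CPM in the wtIDH1 libraries and 294, 286 and 319 CPM in the mIDH1 libraries. All mIDH1 libraries were below all wtIDH1 libraries, with a log2 fold change of -0.32 ± 0.16 SE (adjusted p = 0.271 by edgeR). Acaca, which makes malonyl-coenzyme A and uses the product of Acly, had the opposite sign. It was at 47.2, 38.6 and 39.8 CPM in the wtIDH1 libraries and 70.8, 52.1 and 71.2 CPM in the mIDH1 libraries, without overlap (log2 fold change 0.63 ± 0.21 SE, adjusted p = 0.094 by edgeR). Fasn, fatty acid synthase, overlapped, at 107, 63.4 and 54.1 CPM in the wtIDH1 libraries and 91.4, 65.9 and 121 CPM in the mIDH1 libraries.

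Desaturases place double bonds in fatty acyl chains. Scd2, a stearoyl-coenzyme A desaturase, was at 185, 110 and 92.9 CPM in the wtIDH1 libraries and 145, 180 and 419 CPM in the mIDH1 libraries. The value in mIDH1 replicate 3 was far above all others, and wtIDH1 replicate 1 was above both other mIDH1 libraries. The log2 fold change was 0.94 ± 0.36 SE (adjusted p = 0.134 by edgeR), 0.33 without mIDH1 replicate 3 (adjusted p = 0.492) and 1.21 without mIDH1 replicate 1 (adjusted p = 0.047). Its close paralog Scd1 lay between 0.569 and 11.5 CPM, and the sources used here do not say how reads matching both were counted. Fads1, the delta-5 desaturase of polyunsaturated fatty acids, was at 31.7, 26.0 and 21.5 CPM in the wtIDH1 libraries and 38.5, 32.4 and 61.3 CPM in the mIDH1 libraries, without overlap (log2 fold change 0.74 ± 0.29 SE, adjusted p = 0.141 by edgeR). Fads2, the delta-6 desaturase of the same route, was at no more than 2.42 CPM in any library.

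Elongases lengthen the chains. Elovl1, which acts on saturated and monounsaturated very long chains, was at 15.02, 23.3 and 14.8 CPM in the wtIDH1 libraries and 43.6, 28.9 and 29.2 CPM in the mIDH1 libraries. The groups did not overlap, mIDH1 replicate 1 was highest, and the log2 fold change was 0.94 ± 0.30 SE (adjusted p = 0.077 by edgeR and 0.043 by DESeq2). Elovl5, an elongase of polyunsaturated chains, was at 81.6, 43.7 and 49.5 CPM in the wtIDH1 libraries and 69.1, 84.2 and 84.2 CPM in the mIDH1 libraries, with wtIDH1 replicate 1 inside the mIDH1 range. Elovl6, which carries palmitate to stearate, ranged from 3.26 to 11.2 and from 3.79 to 11.3 CPM.

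Acyl-coenzyme A synthetases activate fatty acids for use in lipids or for oxidation. Acsl1, which macrophages induce in inflammation, was at 47.1, 58.1 and 46.5 CPM in the wtIDH1 libraries and 74.9, 71.8 and 75.2 CPM in the mIDH1 libraries. The groups were well apart and the mIDH1 libraries close together, yet the log2 fold change of 0.55 ± 0.19 SE did not pass (95% interval 0.14 to 0.96, adjusted p = 0.100 by edgeR). Acsl4, which prefers arachidonate, was at 111, 93.0 and 107 CPM in the wtIDH1 libraries and 118, 141 and 184 CPM in the mIDH1 libraries, without overlap (log2 fold change 0.51 ± 0.19 SE, adjusted p = 0.134 by edgeR). Acsl3, of lipid droplets, was at 6.42, 2.16 and 0.454 CPM in the wtIDH1 libraries and 6.20, 7.73 and 11.4 CPM in the mIDH1 libraries, the lowest value resting on 9 counts (log2 fold change 1.48 ± 0.79 SE, adjusted p = 0.303 by edgeR). Acsl5 differed little, at 105 ± 2.47 and 112 ± 18.2 CPM (SD, n = 3 each).

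**Figure D3:**
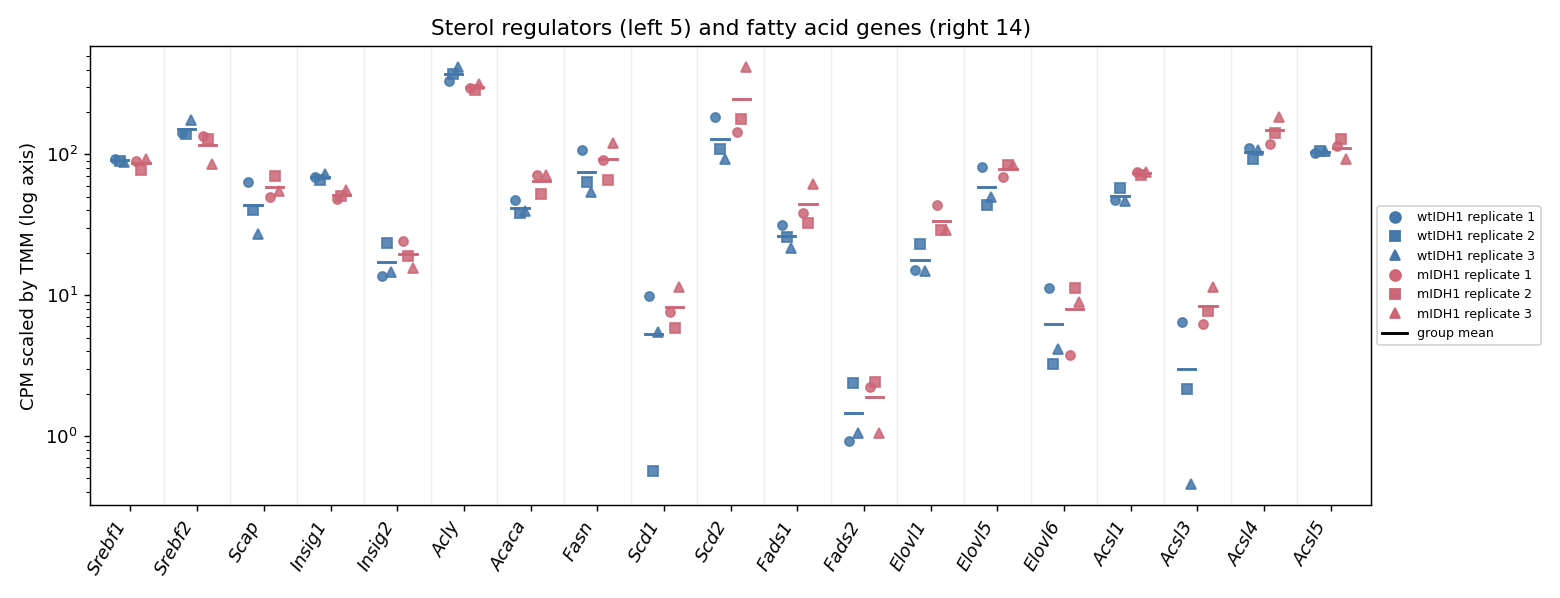
CPM scaled by TMM (log y axis) of the 5 regulators and 14 fatty acid genes (x axis), with 1 point per library, its shape giving the replicate, and bars for group means. Insig1, Srebf2 and Acly lie lower in all mIDH1 libraries, Acaca, Fads1, Elovl1, Acsl1 and Acsl4 higher, and Scd2 reaches 419 CPM in mIDH1 replicate 3. The groups do not overlap for 28.9% of all genes.

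Across the 14 fatty acid genes none passed edgeR's test or limma voom, and DESeq2 called Elovl1. An unadjusted p under 0.05 by edgeR was found for 6, all higher in mIDH1. Of the 12950 genes tested 22.2% had such a p in either direction, 1311 genes of them higher in mIDH1. The log2 fold change was positive for 13 of the 14, where it was for 53.4% of all genes, with a median of 0.53. The median was 0.37 without mIDH1 replicate 3 and 0.74 without wtIDH1 replicate 1. The summed level overlapped, at 1088, 944 and 960 CPM in the wtIDH1 libraries and 1080, 1098 and 1489 CPM in the mIDH1 libraries. Acly made up 30.5%, 39.5% and 43.4% of these sums in wtIDH1 and 27.2%, 26.1% and 21.4% in mIDH1.

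The mIDH1 libraries did not order the same way for sterol and for fatty acid genes. Replicate 3 was the lowest of the 3 for 10 of 18 sterol enzymes and the highest for 10 of 14 fatty acid genes. Yet it was also the highest of all 6 libraries for 5 sterol enzymes, Pmvk and Hsd17b7 among them. Replicate 1 was the highest of the 3 for 9 sterol enzymes and for 1 fatty acid gene. On log2 CPM centred on the mean of each gene, the median over sterol enzymes was 0.42, 0.32 and -0.06 in mIDH1 replicates 1, 2 and 3, and that over fatty acid genes 0.20, 0.22 and 0.49. The wtIDH1 libraries had medians of -0.16, -0.18 and -0.15 over sterol enzymes and of -0.04, -0.38 and -0.47 over fatty acid genes, where replicate 1 was the highest wtIDH1 library for 9 of 14 genes. The order of these values was not tested.

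**Figure D4:**
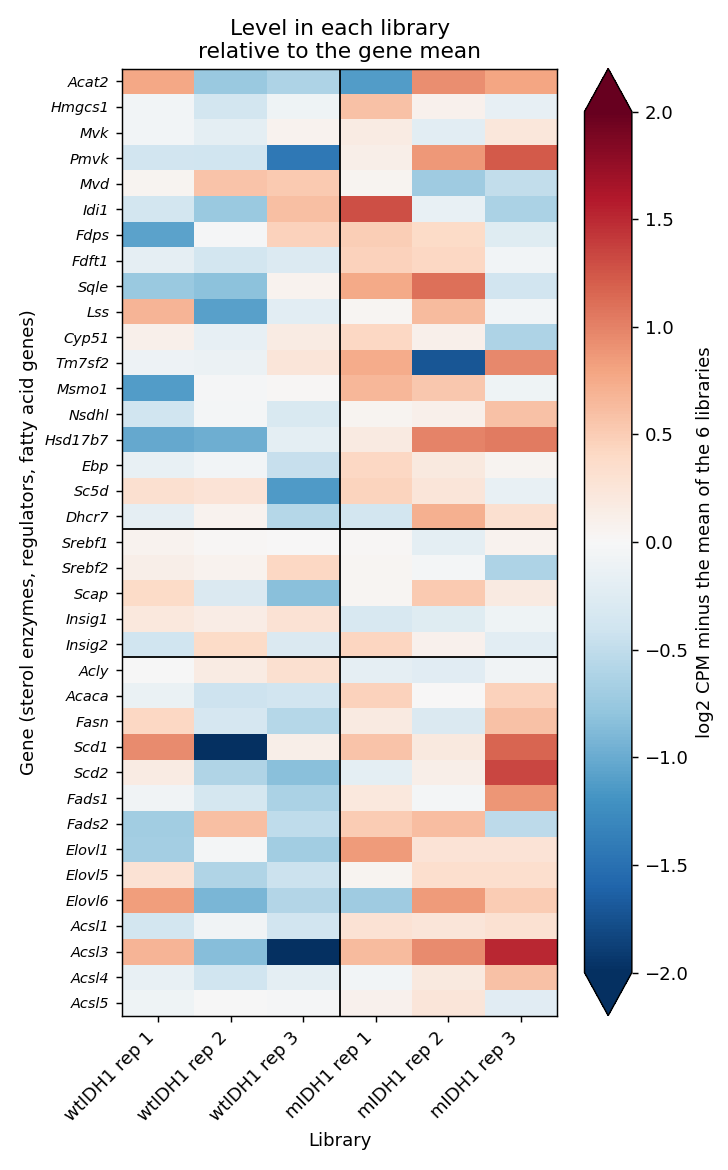
Log2 CPM of each of the 37 genes (y axis) in each library (x axis) minus the mean of the 6 libraries, from blue (lower) to red (higher), with lines between the groups and between sterol enzymes, regulators and fatty acid genes. The third mIDH1 library is pale or blue for several sterol enzymes and Srebf2, and red for the sterol enzymes Pmvk and Hsd17b7 and for Scd2, Fads1, Acsl3 and Acsl4.

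Markers of cell types were read in the same libraries. Beside their counts stand 2.78% of all genes called higher, 5.39% called lower and 22.2% with an unadjusted p under 0.05. Of 8 macrophage markers 5 rose. The sum of the 8 was 4298, 4130 and 7343 CPM in the mIDH1 libraries against 2980, 2353 and 2385 CPM in wtIDH1. It was highest in mIDH1 replicate 3 and, within wtIDH1, in replicate 1, as for the fatty acid genes. C1qa, C1qb and C1qc made up most of this sum. Within wtIDH1 these genes and Mertk were highest in replicate 1, but Mrc1 and Ms4a7 in replicate 3 and Adgre1 and Cd68 in replicate 2. Of 7 monocyte markers 2 fell, Ly6c2 and Plac8. The list went both ways, with 4 negative and 3 positive log2 fold changes (Chil3 1.19, Vcan 0.82 and Itgam 0.13, none of which passed). The sum of the 7 was lowest among the mIDH1 libraries in replicate 3 (5857, 4079 and 3173 CPM), as for the sterol enzymes. Itgam and Chil3 made up most of this sum, and Chil3 alone was at 2488, 1230 and 757 CPM in these libraries. The monocyte sums in wtIDH1 were 2982, 4069 and 4260 CPM. Of 9 neutrophil markers tested 3 rose (Cxcr2, Mmp8 and Lcn2) and 1 fell (Csf3r), with sums over all 10 listed of 326 to 399 and 420 to 433 CPM. Of 14 glioma and neural markers 6 were tested and 1 rose, Sox2, at 0.546, 7.30 and 4.19 CPM in mIDH1 and at most 0.151 CPM in wtIDH1. Mag (1.75 to 4.84 CPM in wtIDH1 and 6.85 to 7.89 CPM in mIDH1), Nes (2.42 to 3.72 and 8.28 to 9.35 CPM) and Tubb3 (0 to 0.569 and 0.951 to 6.74 CPM) were above the wtIDH1 range in every mIDH1 library without passing (adjusted p = 0.239, 0.092 and 0.090 by edgeR). Gfap reached 5.59 CPM in wtIDH1 replicate 1. The 8 markers below the filter included Mog (0 counts in all libraries), Sox10 (at most 0.333 CPM) and Olig2 (at most 0.0504 CPM). Mbp, between 67.4 and 84.0 CPM, made up most of the sum of these markers (88.7 to 108 CPM). Of 4 endothelial markers tested none passed by edgeR and 2 had an unadjusted p under 0.05. The sum of all 6 listed was 160 to 197 CPM in wtIDH1 and 75.1 to 132 CPM in mIDH1. Pecam1, Flt1 and Kdr made up most of it, while Cldn5 was at most 0.155, Tek at most 0.428 and Cdh5 at most 6.29 CPM in any library. None of 5 T and B cell markers passed (2 at an unadjusted p under 0.05), with sums of 52.9 to 109 and 90.2 to 164 CPM. Being lowest in mIDH1 replicate 3 was not particular to the monocyte sum. In mIDH1 replicates 1, 2 and 3 the endothelial sums were 132, 119 and 75.1 CPM. Those of glioma and neural markers were 108, 102 and 97.8 CPM, and those of T and B cell markers 130, 164 and 90.2 CPM. Neutrophil sums, like macrophage sums, were highest in mIDH1 replicate 3 (420, 419 and 433 CPM). The part of any of these cells in the lipid gene values was not tested.

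Genes can be compared with each other only per length. As CPM per kilobase of annotated exon, averaged over the groups, Acly was at 73.0, Scd2 at 34.5, Ebp at 27.5, Srebf2 at 26.5 and Acsl5 at 25.5. Among the sterol enzymes Pmvk (17.8), Fdps (11.97) and Fdft1 (11.9) came after Ebp. The levels of Sqle (3.85), Lss (1.44) and Hsd17b7 (1.25) were far lower. The lowest of the 37 were Acat2 (0.72) and Fads2 (0.53). For Fdps, 77.4% of the exon length is also annotated to an overlapping gene model on the same strand, so its level is uncertain.

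Genes around the synthesis route were read as well, from lists put together by gene function. Their counts of calls stand beside 8.17% of all genes called, 2.78% higher and 5.39% lower. Of 14 other sterol and isoprenoid enzymes 1 rose, Zmpste24, which trims farnesylated prelamin A, from 25.04 ± 6.83 to 55.7 ± 9.01 CPM (SD, n = 3 per group; log2 fold change 1.15 ± 0.26 SE, adjusted p = 0.019 by edgeR). Its adjusted p was 0.100 without wtIDH1 replicate 2 and 0.079 without wtIDH1 replicate 3. A single call among 14 genes, or among the 11 of the next list, is near the background. Coq2 and Pdss2, enzymes of the ubiquinone branch, had log2 fold changes of -0.61 and 1.54 and did not pass. Of 11 genes of SREBP transport, cleavage and INSIG turnover 1 rose, Sec24d, a coat protein of vesicles leaving the endoplasmic reticulum (38.4 ± 2.92 to 63.0 ± 7.01 CPM (SD, n = 3 each), adjusted p = 0.049 by edgeR). Its call was lost with the replicate block (adjusted p = 0.106) and without any library but mIDH1 replicate 3 (adjusted p up to 0.185). Mbtps2, the site-2 protease of SREBP, had a log2 fold change of 1.12 and did not pass (adjusted p = 0.111 by edgeR, and 0.031 without wtIDH1 replicate 1).

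Genes of sterol uptake, storage and export passed in both directions. Of 19 tested 4 rose and 2 fell, beside 2.78% and 5.39% of all genes. Nceh1, which hydrolyses stored cholesterol esters in macrophages, was at 72.3, 74.9 and 55.8 CPM in the wtIDH1 libraries and 125, 165 and 178 CPM in the mIDH1 libraries (log2 fold change 1.20 ± 0.20 SE, adjusted p = 0.0033 by edgeR), and it passed in all 15 other settings. Stard3, a sterol transfer protein of late endosomes, was at 92.3, 120 and 114 CPM in the wtIDH1 libraries and 63.6, 60.3 and 49.5 CPM in the mIDH1 libraries (log2 fold change -0.91 ± 0.19 SE, adjusted p = 0.012 by edgeR). Cyp27a1, the mitochondrial sterol 27-hydroxylase, fell from 42.3 ± 3.87 to 19.4 ± 1.65 CPM (SD, n = 3 per group; log2 fold change -1.12 ± 0.24 SE, adjusted p = 0.014 by edgeR).

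The other genes of this list that rose are named after their values were seen. Soat1, which esterifies cholesterol for storage, was at 403, 434 and 399 CPM in the wtIDH1 libraries and 610, 603 and 582 CPM in the mIDH1 libraries (log2 fold change 0.54 ± 0.15 SE, adjusted p = 0.047 by edgeR). It did not pass with no filter (adjusted p = 0.058), with the replicate block (0.126) or without any library but mIDH1 replicate 3 (0.080 to 0.177). Pltp, a phospholipid transfer protein, had a log2 fold change of 0.97 (adjusted p = 0.014 by edgeR, and 0.061, 0.083 or 0.0504 without wtIDH1 replicate 1 or 3 or mIDH1 replicate 2). Vldlr, a lipoprotein receptor, was at 0, 0.0759 and 0.202 CPM in wtIDH1, at or near the limit of detection, and at 3.39, 6.83 and 4.19 CPM in mIDH1 (adjusted p = 0.018 by edgeR, and 0.073 by limma voom or 0.089 or 0.090 without wtIDH1 or mIDH1 replicate 2). Stard3 and Cyp27a1 did not pass without wtIDH1 replicate 2 or 3 (adjusted p = 0.051 to 0.082). Of the list 1 to 4 genes rose and 0 to 3 fell when 1 library was left out. Without mIDH1 replicate 2 only 1 rose, without any of the wtIDH1 libraries 2 rose, without wtIDH1 replicate 2 or 3 none fell, and without mIDH1 replicate 1 there were 3 that fell. The difference between this list and the synthesis genes was not tested.

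Among 19 further tested genes of fatty acid and triglyceride synthesis 1 fell, where 5.39% of all genes did, so the count is near the background. It was Lpin2, a phosphatidate phosphatase (146 ± 14.8 to 83.0 ± 24.9 CPM (SD, n = 3 per group), log2 fold change -0.82 ± 0.22 SE, adjusted p = 0.042 by edgeR). It passed in 8 of 15 other settings, failing by library totals (0.054), by upper-quartile factors (0.052), with the replicate block (0.069) and without any wtIDH1 library or mIDH1 replicate 2 (adjusted p of 0.068 to 0.155). Dgat2 and Hsd17b12 did not pass. Of 17 tested genes of fatty acid oxidation none passed edgeR's test or limma voom, 2 had an unadjusted p under 0.05, and DESeq2 called 2 higher, the trifunctional protein gene Hadhb and Hadh (log2 fold changes of 1.07 and 1.24 by edgeR, adjusted p = 0.086 and 0.062). Those 2 passed by edgeR with no filter, and Hadhb without wtIDH1 replicate 2 or mIDH1 replicate 3. Hadha, the partner subunit of Hadhb, had a log2 fold change of 0.30 (adjusted p = 0.306 by edgeR).

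**Figure D5:**
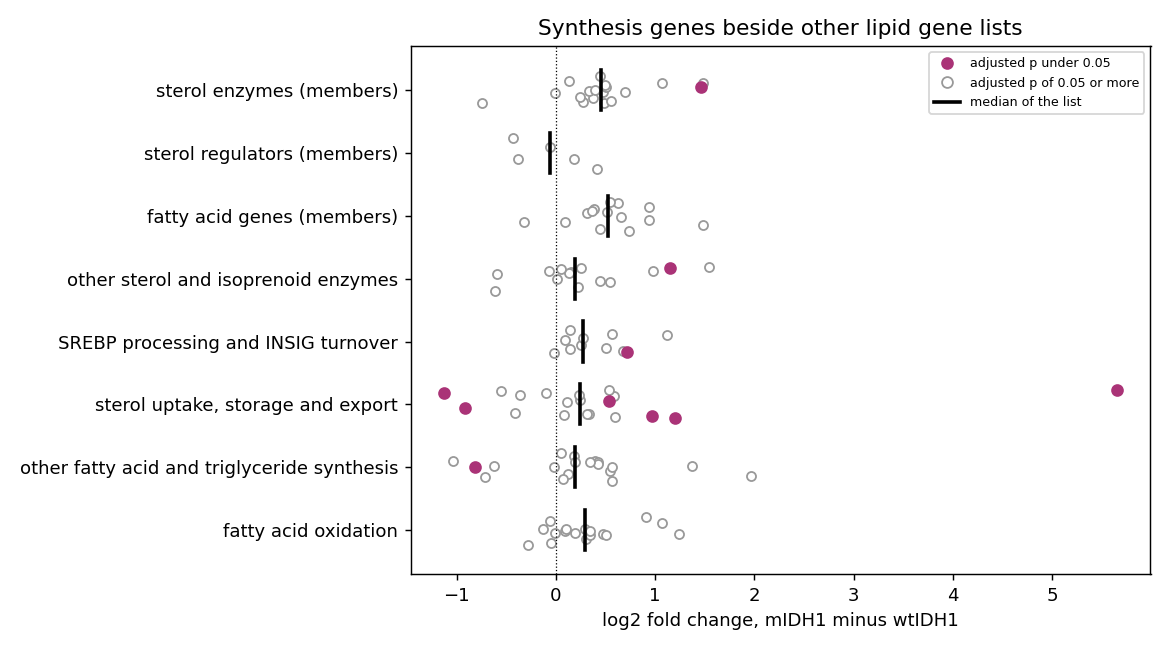
Log2 fold changes between mIDH1 and wtIDH1 (x axis) of each tested gene of the 3 synthesis groups and the 5 other lipid lists (y axis), filled where an adjusted p of 0.05 was passed, with a bar at each list's median. Filled points are 1 for the sterol enzymes, 0 for regulators and fatty acid genes and 6 for sterol uptake, storage and export, where Vldlr lies far right because its wtIDH1 values are close to 0.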

How the data were processed

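RNA of 6 libraries was sequenced after polyA selection, per the labels' protocols, with an Illumina TruSeq mRNA kit of a version that does not mark strand. The values the authors deposited are estimated counts by gene, unscaled for depth. The tools, per the submitters' processing notes, were TopHat2 2.0.13 with Bowtie2 2.2.1, HTSeq, Cufflinks, Cuffdiff 2.1.1 and FastQC, with build mm10. The sources used here do not give their order, settings or annotation. Each library had 1.31 to 1.61% of values further than 1e-09 from a whole number, and values were rounded.

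Genes were filtered with filterByExpr (minimum count 10, minimum total 15), libraries scaled by TMM, and groups compared with edgeR 4.0.16 (glmQLFit and glmQLFTest, no covariate) under R 4.3.3. Two-sided p-values were adjusted by Benjamini-Hochberg over 12950 genes. CPM use TMM-scaled totals, and lengths are unions of exons of GENCODE M21 (GRCm38). The code was tested on simulated counts. Alternatives were other scalings, filters and dispersions, DESeq2 1.42.0, limma 3.58.1 (voom), a replicate block and leaving out each library. Of each other lipid list up to 3 genes with the smallest p are named, except that 1 is not reported here. Members and lists were chosen with earlier results of these data known. Of 173 listed genes, 172 were found, 6 under an older symbol. No replicate pair agreed within sampling noise (chi-square over its degrees of freedom 48.5 to 139).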

Additional observations from a re-analysis of the deposited data

How the results depend on the processing

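With 3 libraries per group, a log2 difference of the size most of these genes show lies within the error of the test, so a missed threshold does not show equal levels. Over all genes the test called 360 higher and 698 lower (65.97% lower), 486 and 593 by library totals alone (54.96% lower), 456 and 603 with upper-quartile factors (56.94% lower) and 715 and 983 by DESeq2. With the replicate block the counts were 156 and 429. Leaving out 1 library gave 78 to 365 higher and 256 to 707 lower. The count of sterol enzymes called higher was 1, and 0 with the replicate block, where Pmvk had a log2 fold change of 1.45. Without 1 library it was 0 to 1, and Pmvk passed in 10 of 15 settings. The count of fatty acid genes called higher was 0, and 1 by DESeq2 (Elovl1) or with no filter (Scd2), and 0 to 1 without 1 library. Same-numbered libraries did not deviate together (correlations of -0.03, 0.03 and -0.05 for replicates 1, 2 and 3), so the numbers were not taken to pair the samples, and only replicate 2 correlated best with its own number in both groups. The sign of the difference changed in at least 1 setting for Cyp51 (6 of 15), Srebf1 (3), Tm7sf2 (2), Idi1, Lss, Sc5d and Acsl5 (1 each), none of which passed in any setting. No regulator passed in any setting, and no sterol enzyme other than Pmvk did. The settings for the other lipid lists were added after the data were seen.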
